A study of Mus musculus with 28 samples.

Results

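The Hox genes of the 4 mouse clusters were followed through the populations that lead from endothelium to blood. They were taken by name, as every gene symbol made of Hox, a cluster letter from a to d and a paralog number. The rule itself uses no measured value, but the set was chosen with earlier results of these data known. The rule found 39 genes among the 24015 in the count table. The Hoxa cluster had 11 on chromosome 6 (chr6:52105366-52210874, mm9). The Hoxb cluster had 10 on chromosome 11 (chr11:96055675-96229567), the Hoxc cluster 9 on chromosome 15 (chr15:102751562-102867283), and the Hoxd cluster 9 on chromosome 2 (chr2:74506367-74603199).

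Hox genes encode homeodomain transcription factors that give cells their position along the body axis. Within a cluster, genes with low paralog numbers are expressed earlier and further forward, can be induced by retinoic acid and lie at the 3′ end, while those with high numbers are used later, in the posterior trunk and tail. In blood formation, Hoxa9, Hoxa7 and Hoxa10 are known for their part in stem and progenitor cells and in leukemia, and Hoxb4 for expanding stem cells when overexpressed. Hox proteins bind DNA with Pbx and Meis proteins as partners. Cdx factors can activate the clusters, MLL (Trithorax) complexes keep them active and Polycomb complexes keep them silent.

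The 28 RNA libraries came from pools of 100 sorted cells of mouse embryos with the genotype 23GFP transgenic, which all groups share. From E8.5 tissue labelled PAS+VU there were 4 libraries of hemogenic endothelium (HE), the endothelium that gives rise to blood, and 3 of other endothelial cells (EC). From E9.5 PAS+VU there were 3 libraries each of pro-HSC/HPC, HE and EC, and from E10.5 AGM+VU 3 each of pre-HSC II, pre-HSC I, HE and EC, where HSC stands for hematopoietic stem cell and HPC for hematopoietic progenitor cell. The tissue label changes with the day between E9.5 and E10.5, so tissue and day cannot be told apart there. Nothing in the labels says which embryos a library came from or how the cells were gated. The p-values thus speak of the spread among these libraries alone, part of which can be technical. In bulk samples fewer cells of a type and less RNA per cell cannot be told apart.

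Libraries held 16308918 to 31405603 counts, of which the Hox genes took 0.0121% to 0.0295%, and 20 to 35 of the 39 members had at least 1 count in a library. Levels are counts scaled by the size of the library (CPM), and genes are set against each other only in CPM per kb of the deposited gene length. A filter on low counts left 15238 genes for testing, 34 of them Hox genes. Not tested were Hoxb13 and Hoxc12, which had no counts in any library, and Hoxc13, Hoxc11 and Hoxd12, which had 4, 3 and 4 counts over all libraries. The summed CPM of 8 blood markers ran from 1169 to 1215 in pre-HSC II, from 572 to 773 in pre-HSC I and from 66.9 to 82.6 in E10.5 HE. For 10 endothelial markers the sums were 457 to 549, 1190 to 1744 and 3861 to 4284 CPM in the same order. Some libraries differed from others of their group. E8.5 HE replicate 3 was the lowest E8.5 HE library for Hoxa7, Hoxa9, Hoxa10, Hoxa11 and Hoxc10 and the highest for Hoxb4. E8.5 EC replicate 3 had 32.3 CPM of Hoxa9, against 84.2 and 100.0 CPM in replicates 1 and 2. For Hoxb3 it had 21.3 CPM, against 3.14 and 4.28 CPM.

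The promoters of Hoxa7, Hoxa9 and Hoxa10, which were lower together in E8.5 HE, and of Hoxd8, which was lower in both pre-HSC comparisons, are shown as 250 bases before to 50 after the start of transcription (RefSeq, build GRCm38.p6, not the mm9 of the counts). Capitals mark matches on either strand to 4 motifs, and no match in these windows overlapped another. The motif of Meis proteins was TGACAG. That of Pbx with a Hox partner was TGATNNAT. For Cdx proteins it was TTTATG. The core promoter box was TATAAA.
Hoxa7, chr6:52218524-52218823, minus strand: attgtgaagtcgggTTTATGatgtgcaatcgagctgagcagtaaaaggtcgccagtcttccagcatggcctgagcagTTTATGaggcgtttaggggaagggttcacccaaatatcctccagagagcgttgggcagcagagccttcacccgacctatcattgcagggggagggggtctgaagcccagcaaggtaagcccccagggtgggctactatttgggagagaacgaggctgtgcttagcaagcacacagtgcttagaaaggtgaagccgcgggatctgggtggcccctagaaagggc
Hoxa9, chr6:52227321-52227620, minus strand: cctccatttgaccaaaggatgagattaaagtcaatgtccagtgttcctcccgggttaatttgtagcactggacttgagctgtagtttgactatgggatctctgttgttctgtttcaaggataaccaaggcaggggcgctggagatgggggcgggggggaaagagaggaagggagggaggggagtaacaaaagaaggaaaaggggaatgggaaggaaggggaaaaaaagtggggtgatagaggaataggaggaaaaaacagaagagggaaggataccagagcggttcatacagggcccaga
Hoxa10, chr6:52240805-52241104, minus strand: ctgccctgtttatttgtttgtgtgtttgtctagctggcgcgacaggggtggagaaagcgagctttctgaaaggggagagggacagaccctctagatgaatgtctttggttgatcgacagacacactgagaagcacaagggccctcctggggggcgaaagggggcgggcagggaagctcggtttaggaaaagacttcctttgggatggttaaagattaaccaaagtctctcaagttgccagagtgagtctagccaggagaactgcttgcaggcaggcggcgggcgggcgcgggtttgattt
Hoxd8, chr2:74704365-74704664, plus strand: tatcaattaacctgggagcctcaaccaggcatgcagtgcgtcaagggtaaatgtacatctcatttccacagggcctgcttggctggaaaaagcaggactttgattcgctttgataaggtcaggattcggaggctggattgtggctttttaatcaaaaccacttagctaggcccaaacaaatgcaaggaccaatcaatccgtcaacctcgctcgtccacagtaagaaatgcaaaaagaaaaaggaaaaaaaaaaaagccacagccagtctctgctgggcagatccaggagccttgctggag
Hoxa7 held 2 TTTATG matches, and the windows shown for Hoxa9, Hoxa10 and Hoxd8 held none of the 4 motifs. A second Hoxa10 start in the table, not shown, held 1 TATAAA match. Among 24 promoters of the 22 members found in the table, 20.8% held TTTATG, 16.7% TGATNNAT, 16.7% TATAAA and 8.33% TGACAG. Among all 32851 promoters of the table the shares were 11.9%, 8.85%, 13.6% and 19.2% in the same order. A match is a description of letters in the window and shows no binding.

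Hox RNA was highest in E8.5 EC and lowest in pre-HSC II. The sum over all members averaged 96.4 ± 25.0 CPM per kb in E8.5 HE (SD, n = 4) and 155 ± 17.3 in E8.5 EC (SD, n = 3, as for all groups that follow). At E9.5 it was 76.1 ± 2.72 in pro-HSC/HPC, 79.3 ± 5.08 in HE and 97.1 ± 10.6 in EC. The E10.5 sums were 52.8 ± 2.98 CPM per kb in pre-HSC II, 67.3 ± 4.70 in pre-HSC I, 95.4 ± 2.50 in HE, and 97.6 ± 7.19 in EC. The libraries of pre-HSC II (49.6 to 55.4), pre-HSC I (62.5 to 71.9) and E10.5 HE (93.1 to 98.0) did not overlap, whereas E10.5 HE and EC did.

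The clusters did not follow the total alike. Hoxa supplied 86.8 ± 4.94% of the Hox sum in pre-HSC II, 71.4 ± 4.51% in pre-HSC I and 48.2 ± 3.33% in E10.5 HE. Its own summed level was 45.9 ± 5.14, 47.9 ± 0.627 and 46.0 ± 2.01 CPM per kb in those populations, differences within the spread of the libraries. Not all of Hoxa was level. Its paralogs 1 to 3 summed to 0.668 to 1.67, 2.34 to 3.07 and 4.24 to 10.1 CPM per kb in the same order, without overlap. Hoxa paralogs 4 to 8 were at 18.3 to 20.7, 15.7 to 19.6 and 15.3 to 17.4 CPM per kb. Hoxa paralogs 9 to 13 were at 21.7 to 30.7, 25.1 to 30.6 and 19.3 to 25.2 CPM per kb. The Hoxb sum was at 6.50 ± 2.25 CPM per kb in pre-HSC II, 13.4 ± 4.20 in pre-HSC I and 33.4 ± 5.12 in E10.5 HE. Hoxc was at 0.133 ± 0.0552, 2.93 ± 1.29 and 5.59 ± 1.86, and Hoxd at 0.273 ± 0.295, 2.99 ± 0.870 and 10.45 ± 3.01 CPM per kb in the same order. In the 3 smaller clusters, no pre-HSC II library reached any pre-HSC I library, and for Hoxb and Hoxd the same held between pre-HSC I and E10.5 HE. At E8.5 the balance ran the other way: Hoxb made up 68.1 ± 8.43% of the Hox sum in HE and 33.9 ± 2.81% in EC, and Hoxa 21.7 ± 5.5% in HE and 40.1 ± 4.5% in EC.

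**Figure D1:**
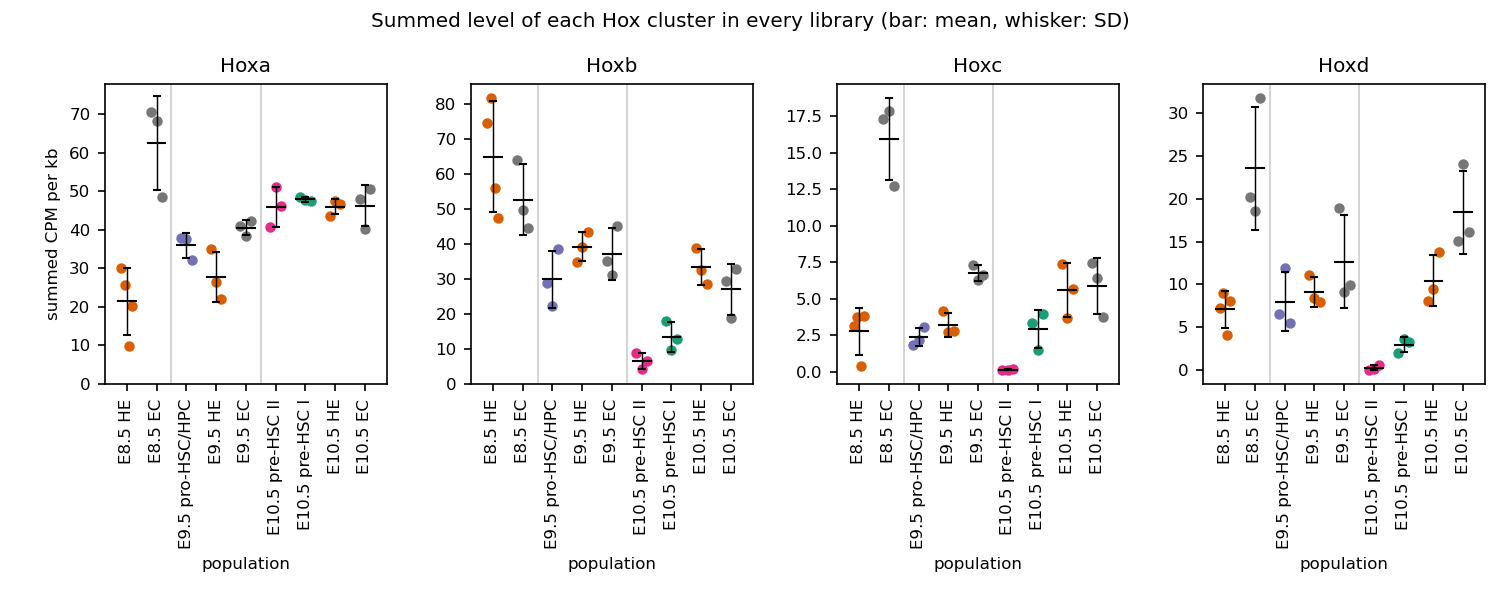
Summed level of each Hox cluster (CPM per kb, vertical axis) in every library of the 9 populations (horizontal axis), with points for libraries, bars for means and whiskers for SD. Hoxa averages 45.9 CPM per kb in pre-HSC II and 46.0 in E10.5 HE, while the Hoxb, Hoxc and Hoxd sums of pre-HSC II lie under those of all other populations.

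Position along the cluster split the E8.5 populations. Paralogs 9 to 13 made up 16.2 ± 8.28% of the Hox sum in HE and 44.3 ± 2.48% in EC. Paralogs 1 to 3 made up 21.9 ± 3.12% in HE and 6.13 ± 2.88% in EC. Neither share overlapped between the groups, at 4.53% to 22.9% in HE against 41.8% to 46.8% in EC for paralogs 9 to 13, and 19.9% to 26.6% against 3.77% to 9.33% for paralogs 1 to 3. At E10.5, paralogs 9 to 13 made up 48.7 ± 5.88% in pre-HSC II, 45.4 ± 2.42% in pre-HSC I, 31.5 ± 1.19% in HE and 31.5 ± 3.21% in EC. These are shares of a sum that itself differed between populations. The posterior share in pre-HSC II rested on the Hoxa cluster, where paralogs 9 to 13 summed to 25.5 ± 4.62 CPM per kb, against 0.00789 ± 0.0137 in Hoxc, 0.0131 ± 0.00451 in Hoxd and 0.263 ± 0.227 for Hoxb9 and Hoxb13.

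Hoxa9 was the member with the highest mean level over the populations in CPM per kb, followed within the other clusters by Hoxb5, Hoxd8 and Hoxc10. By CPM per kb, Hoxa9 led in 4 populations: E8.5 EC (22.3 ± 10.98), pro-HSC/HPC (13.8 ± 0.999), pre-HSC II (21.5 ± 5.17) and pre-HSC I (19.7 ± 0.821). In E8.5 EC its lead over Hoxb7 (20.1 ± 9.90) was within its spread. Hoxb5 led in E8.5 HE (28.5, from 18.8 to 39.0 over its 4 libraries), E9.5 HE (12.4 ± 1.90) and E9.5 EC (10.2 ± 0.615). Hoxb7 led in E10.5 HE (13.1 ± 5.72), within its spread of Hoxa9 (12.8 ± 2.87), and Hoxd8 led in E10.5 EC (12.4 ± 7.45), within its spread of Hoxa7 (11.7 ± 2.49). In pre-HSC II all of the 3 highest members were Hoxa genes, Hoxa7 (13.6 ± 0.647) and Hoxa10 (4.05 ± 0.567) following Hoxa9. Of the 39 members 13 had no count in any pre-HSC II library, 10 in pre-HSC I and 6 in HE of the same day, against 4 in EC.

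**Figure D2:**
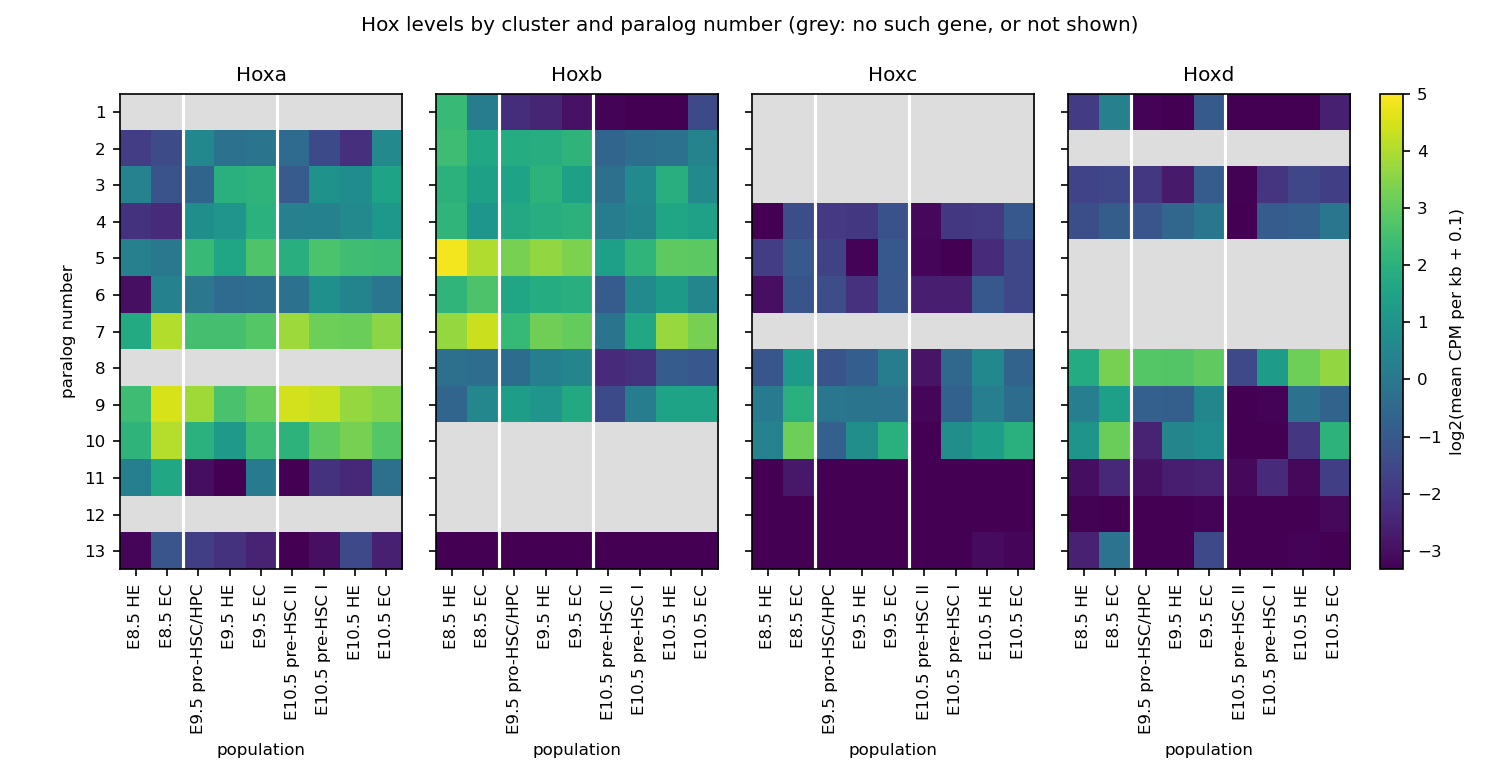
Mean level of Hox genes, as log2(mean CPM per kb + 0.1) in color, by paralog number (vertical) and population (horizontal), with 1 panel per cluster, white lines between embryonic days and grey where a cluster lacks that number or no level is shown. Pre-HSC II keeps high levels in Hoxa7 and Hoxa9 (13.6 and 21.5 CPM per kb), whereas its Hoxc and Hoxd columns lie near the bottom of the scale.

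At E8.5, HE had less RNA than EC of 4 middle and posterior members, Hoxa7, Hoxa9, Hoxa10 and Hoxc10. Of the 34 tested members 4 were lower, against 1.73% of all genes tested, and 1 was higher, against 5.08% of all genes (edgeR quasi-likelihood test, Benjamini-Hochberg adjusted p under 0.05, the rule for every count that follows). In either direction 6.81% of genes were called. The median log2 difference was -1.22 over the 34 members and 0 over all genes. Before adjustment 15 members had a p under 0.05, 11 of them lower. The share of all genes under that cutoff is not given here, nor for the later counts before adjustment, so these counts are not set against genes at large.

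Hoxa7, a mid-trunk member also active in blood progenitors, had 12.7, 8.76, 1.24 and 3.22 CPM in the 4 HE libraries, against 33.5, 28.3 and 34.0 CPM in EC. Every HE library lay under every EC library, and the log2 difference was -2.30 ± 0.45 (SE, edgeR adjusted p = 0.00159). Hoxa9, a regulator of stem and progenitor cell growth, had 29.5, 21.4, 3.61 and 13.6 CPM in HE, against 84.2, 100.0 and 32.3 CPM in EC (log2 -2.08 ± 0.41, adjusted p = 0.0019). The groups did not overlap, though the lowest EC library came close to the highest HE library. Hoxa10, its neighbor, which also acts in blood progenitors, had 22.2, 9.33, 1.52 and 19.5 CPM in HE, against 59.4, 44.5 and 55.3 CPM in EC (log2 -2.01 ± 0.48, adjusted p = 0.0102). Again all HE libraries were lower, with HE replicate 3 the lowest of all for each of the 3 genes.

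Hoxc10, a posterior gene known from the lumbar spinal cord and hindlimb, had 2.56, 3.26, 0 and 3.36 CPM in HE and 17.1, 17.5 and 16.7 CPM in EC (log2 -2.89 ± 0.87, adjusted p = 0.0451). The EC libraries were tightly grouped and all above HE. Hoxb5, the highest member in HE, had 68.4, 73.9, 35.6 and 38.3 CPM in HE and 33.5, 34.1 and 22.6 CPM in EC, without overlap but without passing the test (adjusted p = 0.174). With the replicate number as a block within the day it passed (log2 0.94, adjusted p = 0.0234). Over all 34 members the libraries of HE lay entirely above EC for 3 and entirely below for 11, where 7.77% and 8.07% of all genes did so.

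Hoxb4, the expander of stem cells, had 5.78, 7.26, 20.2 and 10.3 CPM in E8.5 HE and 5.0, 3.69 and 6.46 CPM in E8.5 EC, with overlap between the groups and an adjusted p of 0.185. Some low-count members showed large ratios short of the threshold. Hoxc4 had 0 counts in HE and 22, 22 and 0 in EC, at least 21.1-fold lower in HE when the group total of 0 is replaced by a floor of 3 counts (adjusted p = 0.0527). Hoxa6 had 2 counts in HE, both in replicate 2, and 20, 42 and 0 in EC, 44.5-fold lower over the group totals with a 95% counting interval of 11.8 to 376 (adjusted p = 0.0631). For both genes EC replicate 3 had no count, so the groups overlapped.

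The E8.5 calls depended on which libraries were in the fit. Fitted to the 7 E8.5 libraries alone, none of the 5 passed, with adjusted p of 0.116 for Hoxa7, 0.127 for Hoxa9, 0.163 for Hoxa10 and 0.17 for Hoxc10, at log2 differences of -2.25, -2.03, -1.97 and -2.84. Without HE replicate 3, Hoxa7 (log2 -1.94, adjusted p = 0.00208), Hoxa9 (log2 -1.74, adjusted p = 0.00244) and Hoxa10 (log2 -1.63, adjusted p = 0.00896) passed and Hoxc10 (adjusted p = 0.0568) did not. The same 3 passed when any other 1 library was left out. Hoxc10 was lost in each of the 7 such fits (adjusted p of 0.0568 to 0.0905). With the replicate number as a block within the day 7 members passed, the 5 together with Hoxb5 and with Hoxd8 (log2 -1.61, adjusted p = 0.0448), where 14.4% of all genes did. Markers of other tissues were summed too. The 8 endoderm and epithelium genes summed to 16.8 to 58.7 CPM in HE and 52.5 to 93.8 CPM in EC, ranges that overlap. Of these, 5 had counts in each group, though not the same 5. Foxa2 and Ttr were at 0 in both, Cdh1 in HE only and Afp in EC only. For 12 neural genes, 6 with counts in HE and 7 in EC, the sums were 26.1 to 63.5 CPM in HE and 8.32 to 21.4 CPM in EC, with Sox1, Sox3, Foxd3 and Olig2 at 0 in both. Their part in the Hox differences was not tested.

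**Figure D3:**
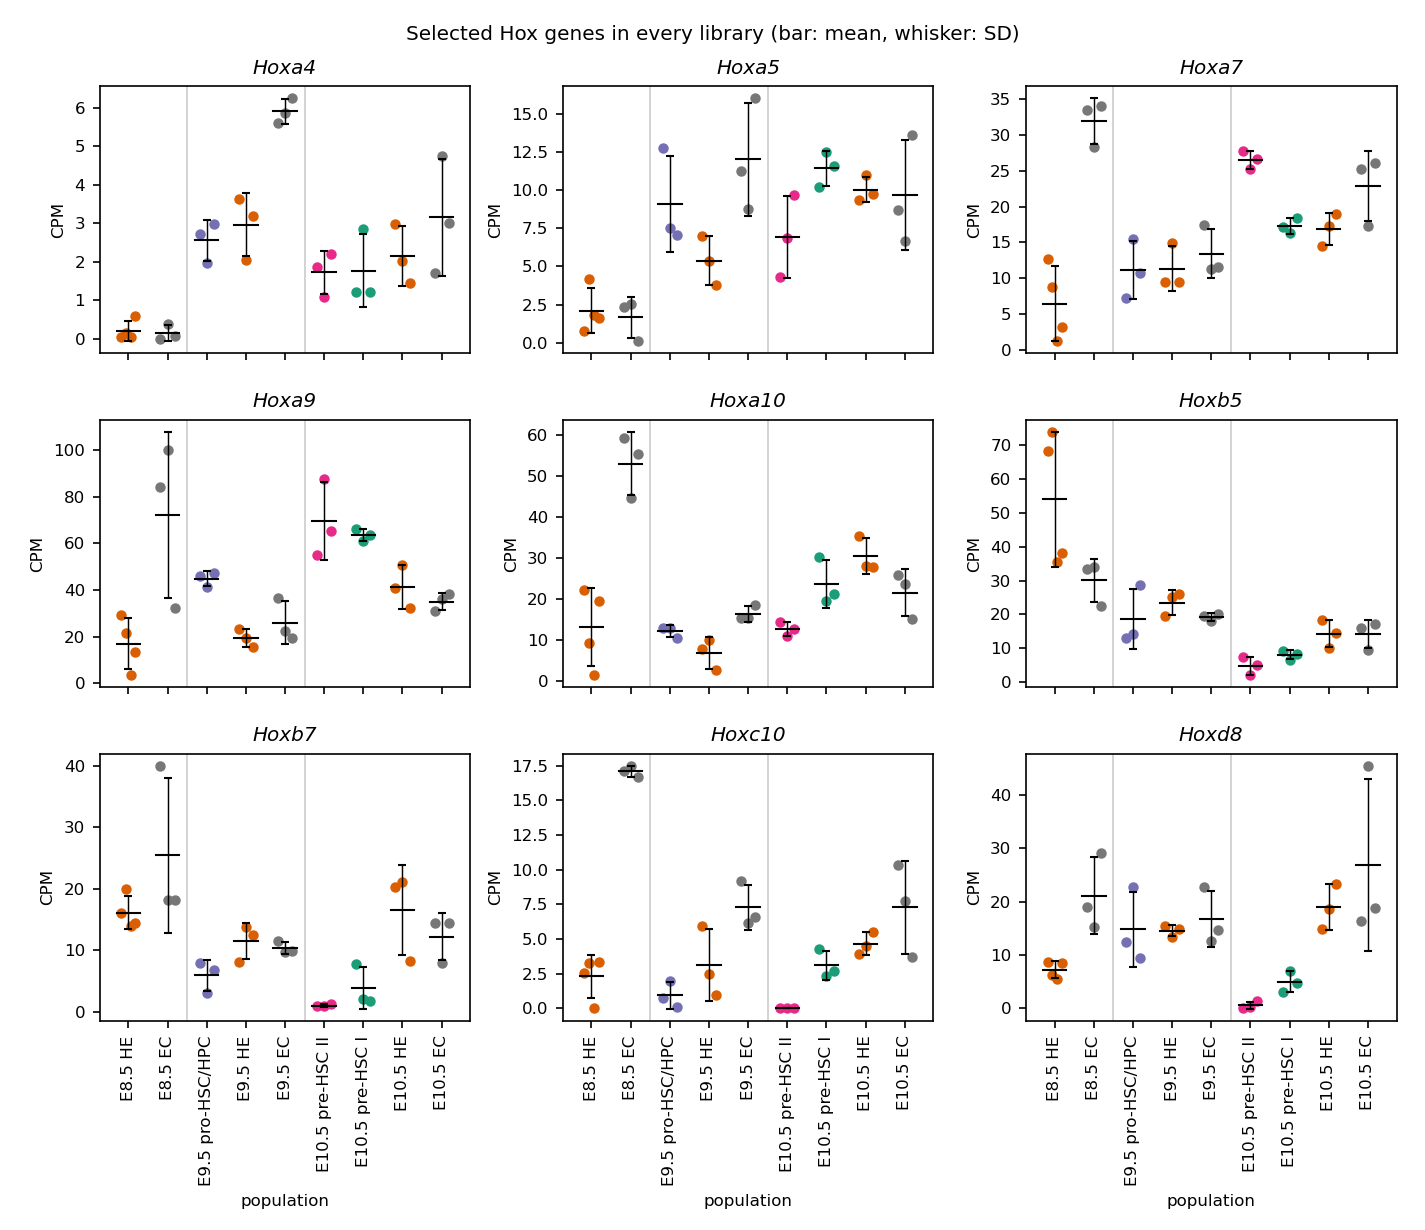
Level of 9 Hox genes (CPM, vertical axis of each panel) in every library of the 9 populations (horizontal axis), with points for libraries, bars for means, whiskers for SD and grey lines between embryonic days. Hoxa7, Hoxa9, Hoxa10 and Hoxc10 sit lower in E8.5 HE than in E8.5 EC, and Hoxc10 is at 0 CPM in all 3 pre-HSC II libraries.

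At E9.5 no member was called between HE and EC. In edgeR's test 0 of 34 passed, where 0.302% of all genes did, and with the replicate block within the day again 0, where 1.1% did. Before adjustment 6 members had a p under 0.05, all lower in HE. Libraries of HE lay entirely below EC for 10 members and above for 0, against 6.6% and 7.78% of all genes. DESeq2 called 1 member, Hoxa11, a limb and kidney gene, with no count in the 3 HE libraries and 1.25, 1.42 and 4.24 CPM in EC. HE was at least 49.8-fold lower (edgeR adjusted p = 0.0833), and Hoxa11 also passed in edgeR without the filter on low counts (adjusted p = 0.0253) and in a fit to these populations alone (adjusted p = 0.0452). Hoxa9 had 23.1, 19.6 and 15.4 CPM in E9.5 HE and 36.4, 22.3 and 19.4 CPM in E9.5 EC, with overlap. Hoxa11 shares 568 exon bases with Hoxa11os on the opposite strand, and since no strand setting is given in the sources used here, reads of the pair cannot be told apart. Hoxa11os averaged 0.583 ± 1.01 CPM in E9.5 HE and 3.56 ± 0.701 CPM in E9.5 EC.

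At E10.5 no member was called between HE and EC either. In edgeR's test 0 of 34 passed, where 2.11% of all genes were higher, 1.37% lower and 3.48% called in all. Before adjustment 6 members had a p under 0.05, 5 of them lower in HE. Libraries of HE lay entirely above EC for 2 members and below for 2, against 11.4% and 8.96% of all genes. DESeq2 called 1 member, Hoxd10. Hoxd10, a limb and lumbar cord gene, had 0.0360, 0 and 0.790 CPM in HE and 10.4, 3.91 and 8.49 CPM in EC. All HE libraries were lower (log2 -4.77 ± 1.35, edgeR adjusted p = 0.0544, and 0.0190 without the filter on low counts). Without HE replicate 3, which carried most of the HE counts of Hoxd10, it passed (adjusted p = 0.0165). Hoxa9 had 40.7, 50.9 and 32.3 CPM in HE and 31.1, 35.9 and 38.1 CPM in EC, and the groups overlapped. Hoxa10 had 35.5, 28.01 and 27.8 CPM in HE and 26.0, 23.6 and 15.1 CPM in EC, all HE libraries being higher, without passing the test.

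The difference between HE and EC was compared between days in the same model. For Hoxa9, HE minus EC was higher at E10.5 than at E8.5 by 2.32 ± 0.60 on the log2 scale (adjusted p = 0.0299): lower in HE at E8.5, and in overlapping ranges at E10.5. It was the 1 member called higher of 34, where 0.879% of all genes were higher, 2.11% lower and 2.99% called in all. Counted in either direction, the share of members called was not above that of genes at large. Hoxa10 came close, with 2.51 ± 0.71 (adjusted p = 0.051). Between E9.5 and E8.5, edgeR called 0 members where 0.164% of all genes were higher, 0.683% lower and 0.847% called in all. Before adjustment 6 had a p under 0.05, and DESeq2 called 0. With the replicate block within the day 1 member passed, Hoxa9 (log2 1.87, adjusted p = 0.0084), where 1.96% of all genes did. Between E10.5 and E9.5, edgeR called 0 members where it called 0.0131% of genes. Before adjustment 5 had a p under 0.05, and DESeq2 called 0. The Hoxa9 call did not hold in a fit to these 4 populations alone (log2 2.29, adjusted p = 0.169). Leaving out single libraries, it was lost without E8.5 EC replicate 1 or 2, E8.5 HE replicate 4, E10.5 HE replicate 1 or 2, or any E10.5 EC replicate (adjusted p of 0.0546 to 0.093), and it held without E8.5 HE replicate 3 (log2 1.98, adjusted p = 0.0193).

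Between E9.5 pro-HSC/HPC and E9.5 HE, edgeR called 0 of 34 members, where 0.505% of all genes were higher, 0.151% lower and 0.656% called in all. Before adjustment 3 had a p under 0.05, 1 of them higher, and DESeq2 called 1, Hoxa3. Libraries of pro-HSC/HPC lay entirely above HE for 4 members and below for 3, against 7.15% and 6.86% of all genes. Hoxa9 had 45.9, 41.1 and 47.2 CPM in pro-HSC/HPC and 23.1, 19.6 and 15.4 CPM in HE. All pro-HSC/HPC libraries were higher (log2 1.21 ± 0.44, adjusted p = 0.419). With the replicate block within the day it was the 1 member that passed (log2 1.23, adjusted p = 0.0159), where 1.43% of all genes did. Hoxa3, which patterns the pharyngeal arches, had 1.20, 0.917 and 1.97 CPM in pro-HSC/HPC and 12.6, 6.15 and 10.1 CPM in HE, also without overlap (log2 -2.81 ± 0.91, adjusted p = 0.269). In a fit to these 2 populations alone both Hoxa9 and Hoxa3 passed, at adjusted p of 0.0345 and 0.0191.

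Pre-HSC I had less RNA of 3 members than E10.5 HE and more of none, all 3 outside the Hoxa cluster: Hoxb7, Hoxd8 and Hoxd9. The 3 of 34 lower members stand against 3.8% of all genes called lower, and the 0 higher members against 3.08% called higher, with 6.88% called in either direction. The median log2 difference of the 34 was -0.69, or -0.78 over 31 members with low-count folds set at their bounds, and 0.01 over all genes. Hoxb7, a trunk and kidney gene, had 7.83, 2.05 and 1.86 CPM in pre-HSC I and 20.3, 21.2 and 8.21 CPM in HE. Every pre-HSC I library was lower, with pre-HSC I replicate 1 just under HE replicate 3 (log2 -2.08 ± 0.50, adjusted p = 0.0103).

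Hoxd8, a trunk gene that was the highest Hoxd member, had 3.13, 7.0 and 4.81 CPM in pre-HSC I and 14.9, 18.7 and 23.3 CPM in HE (log2 -1.93 ± 0.55, adjusted p = 0.0297). The groups were well apart. Hoxd9 had 1 count in pre-HSC I and 116 in HE, 105.5-fold lower with a 95% counting interval of 18.6 to 4203 (adjusted p = 0.0269), the HE values being 0.936, 0.344 and 3.64 CPM. Against these, Hoxa9 had 66.1, 60.8 and 63.6 CPM in pre-HSC I and 40.7, 50.9 and 32.3 CPM in HE, higher in all pre-HSC I libraries without a call, and Hoxa7 had 17.2, 16.3 and 18.4 CPM in pre-HSC I and 14.5, 17.2 and 19.0 CPM in HE, with overlap.

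None of the 3 calls held in all fits without 1 library. Hoxb7 was lost without pre-HSC I replicate 2 or 3 (adjusted p = 0.0833 and 0.069), Hoxd8 without any pre-HSC I replicate or HE replicate 2 or 3 (adjusted p of 0.0534 to 0.111), and Hoxd9 without any pre-HSC I replicate or HE replicate 3 (adjusted p of 0.0615 to 0.125). In a fit to these populations alone Hoxd8 passed (adjusted p = 0.0192) and Hoxb7 did not (adjusted p = 0.0626). Markers of other cells moved as well: 10 paraxial mesoderm genes, all with counts in pre-HSC I and 8 in HE, summed to 9.49 to 17.3 CPM in pre-HSC I and 27.6 to 44.9 CPM in HE, where Tbx6 and Msgn1 were at 0. Of 10 endothelial markers 7 were called lower in pre-HSC I, where 3.8% of all genes were. Their part in the Hox differences was not tested.

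Pre-HSC II had less RNA than pre-HSC I of 5 members from the Hoxb, Hoxc and Hoxd clusters, Hoxb7, Hoxc9, Hoxc10, Hoxd4 and Hoxd8, and more of none. The 5 of 34 lower members stand against 4.28% of all genes called lower, 0.138% called higher and 4.42% in either direction. The median log2 difference was -1.06 over the 34 members, or -1.73 over 27 members with low-count folds at their bounds, and 0 over all genes. Hoxc10 had no count in pre-HSC II and 4.29, 2.33 and 2.66 CPM in pre-HSC I, where 197 counts were seen. It was at least 72.9-fold lower in pre-HSC II (adjusted p = 0.000589).

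Hoxd8 had 0.0765, 0.285 and 1.29 CPM in pre-HSC II and 3.13, 7.0 and 4.81 CPM in pre-HSC I (log2 -3.20 ± 0.61, adjusted p = 0.000917). The groups did not overlap. Hoxd4, a hindbrain and neck gene, had no count in pre-HSC II and 0.454, 0.809 and 2.07 CPM in pre-HSC I, at least 27.8-fold lower (adjusted p = 0.00303). Hoxc9, which shapes the thoracic spinal cord, had 1 count in pre-HSC II and 57 in pre-HSC I, 63.3-fold lower with a 95% counting interval of 10.9 to 2542 (adjusted p = 0.0157). By library the pre-HSC I counts were 21, 1 and 35, so replicate 2 had as few as the pre-HSC II library with 1 count. Hoxb7 had 0.918, 0.895 and 1.29 CPM in pre-HSC II and 7.83, 2.05 and 1.86 CPM in pre-HSC I (log2 -1.91 ± 0.52, adjusted p = 0.0289), where 1 pre-HSC I library stood well above the other two.

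Between pre-HSC II and pre-HSC I edgeR called no Hoxa member, and DESeq2 called Hoxa11, with no count in pre-HSC II and 18, 0 and 0 in pre-HSC I (log2 -5.31, adjusted p = 0.0492). Hoxa9 had 55.1, 87.7 and 65.4 CPM in pre-HSC II and 66.1, 60.8 and 63.6 CPM in pre-HSC I, with overlap, and Hoxa7 had 27.8, 25.3 and 26.6 CPM in pre-HSC II and 17.2, 16.3 and 18.4 CPM in pre-HSC I. Hoxa7 was the only member of the 34 whose pre-HSC II libraries all lay above those of pre-HSC I, as 6.78% of all genes did, and it was not called. For 12 members all pre-HSC II libraries lay below, as for 9.94% of all genes. Hoxa10 had 14.5, 10.98 and 12.6 CPM in pre-HSC II and 30.3, 19.7 and 21.1 CPM in pre-HSC I, all lower without a call. Hoxa5, a trunk and lung gene, had 4.29, 6.83 and 9.67 CPM in pre-HSC II and 10.2, 12.5 and 11.6 CPM in pre-HSC I, also all lower without a call. Hoxb5 had 7.35, 2.07 and 4.89 CPM in pre-HSC II and 9.24, 6.62 and 8.36 CPM in pre-HSC I, with overlap.

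Hoxc10, Hoxd4 and Hoxd8 passed whichever library was left out. Hoxc9 was lost without pre-HSC II replicate 1 or 3 or pre-HSC I replicate 3 (adjusted p of 0.0627 to 0.0977), and Hoxb7 without any pre-HSC II replicate or pre-HSC I replicate 1 (adjusted p of 0.0597 to 0.461, the highest without that pre-HSC I library, where the log2 difference was -0.92). In a fit to these populations alone Hoxc10 passed (adjusted p = 0.00671), Hoxd8 (adjusted p = 0.117) and Hoxb7 (adjusted p = 0.358) did not, and Hoxc9 and Hoxd4 were removed by the filter on low counts. This comparison and the one before share the pre-HSC I libraries. Of 10 paraxial mesoderm genes, 9 had counts in pre-HSC II and all in pre-HSC I, with sums of 0.574 to 0.766 CPM in pre-HSC II and 9.49 to 17.3 CPM in pre-HSC I. The 12 mesenchyme genes, all with counts in both, summed to 34.1 to 37.8 CPM in pre-HSC II and 138 to 469 CPM in pre-HSC I. Of 10 endothelial markers 8 were called lower in pre-HSC II, where 4.28% of all genes were. Their part in the Hox differences was not tested.

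**Figure D4:**
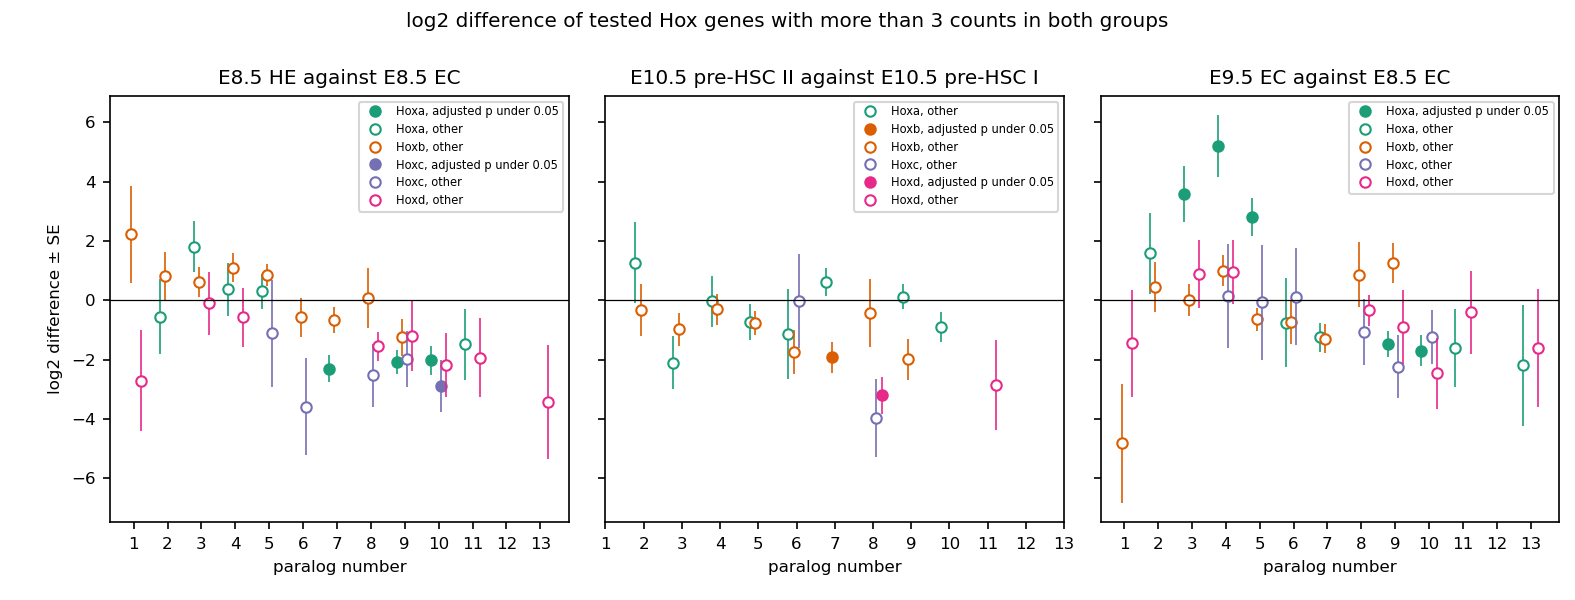
Log2 difference with its SE (vertical axis) of tested Hox genes that had more than 3 counts in both groups, by paralog number (horizontal axis) and cluster (color), with filled points for adjusted p under 0.05. At E8.5, HE minus EC, the called genes of paralogs 7 to 10 lie between -2.89 and -2.01, in pre-HSC II minus pre-HSC I the called points are Hoxb7 and Hoxd8, and in E9.5 EC minus E8.5 EC the called points are all in Hoxa.

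E9.5 EC had more RNA than E8.5 EC of 3 anterior and central Hoxa genes and less of 2 posterior ones. In edgeR's test 3 of 34 members were higher at E9.5 and 2 lower, against 10.1% and 9.56% of all genes and 19.7% in either direction, so the share of members called, 5 of 34, was not above that of genes at large. Hoxa4, a hindbrain and neck gene, had 5.61, 5.87 and 6.25 CPM in E9.5 EC and 0, 0.392 and 0.0627 CPM in E8.5 EC (log2 5.19 ± 1.04, adjusted p = 0.00104). Hoxa5 had 11.2, 8.76 and 16.002 CPM in E9.5 EC and 2.38, 2.55 and 0.125 CPM in E8.5 EC (log2 2.81 ± 0.65, adjusted p = 0.00351). Neither gene overlapped between the days.

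Hoxa3 had 7.03, 9.15 and 15.3 CPM in E9.5 EC and 0.242, 1.77 and 0.564 CPM in E8.5 EC (log2 3.59 ± 0.95, adjusted p = 0.00849), again without overlap. Of the members that were lower, Hoxa10 had 15.3, 15.3 and 18.5 CPM in E9.5 EC and 59.4, 44.5 and 55.3 CPM in E8.5 EC (log2 -1.69 ± 0.53, adjusted p = 0.0249). Hoxa9 had 36.4, 22.3 and 19.4 CPM in E9.5 EC and 84.2, 100.0 and 32.3 CPM in E8.5 EC, and here 1 library of each day overlapped (log2 -1.47 ± 0.44, adjusted p = 0.0205). The 3 E8.5 EC libraries behind these values are also those of the E8.5 comparison of HE and EC. Hoxa3, Hoxa4 and Hoxa5 passed whichever library was left out, while Hoxa9 was lost without E8.5 EC replicate 1 or 2 or E9.5 EC replicate 2 or 3 (adjusted p of 0.0751 to 0.109) and Hoxa10 without E8.5 EC replicate 1 or any E9.5 EC replicate (adjusted p of 0.0663 to 0.0822). In a fit to the EC of these days alone Hoxa5 missed the threshold (adjusted p = 0.0509). Mesenchyme markers, 12 with counts at E9.5 and 10 at E8.5, summed to 90.8 to 563 CPM in E9.5 EC and 51.7 to 74.8 CPM in E8.5 EC, with Lum and Dcn at 0 at E8.5, and their part was not tested.

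Between E9.5 and E10.5, EC showed no called member. In edgeR's test 0 of 34 passed, where 0.308% of all genes were higher, 0.453% lower and 0.761% called in all. Before adjustment 1 had a p under 0.05, lower at E10.5, and DESeq2 called 0. Libraries of E10.5 lay entirely below E9.5 for 7 members and above for 0, against 10.4% and 9.25% of all genes. Within these 2 days Hoxa9 had 31.1, 35.9 and 38.1 CPM in E10.5 EC and 36.4, 22.3 and 19.4 CPM in E9.5 EC, with overlap.

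In HE, Hoxa4 was higher and Hoxa11 lower at E9.5 than at E8.5, the 2 called members of 34, where 2.97% of all genes were higher, 3.58% lower and 6.54% called in all. The share of members called was thus not above that of genes at large. Hoxa4 had 3.64, 2.05 and 3.19 CPM in E9.5 HE and 0.0388, 0.154, 0.0475 and 0.582 CPM in E8.5 HE (log2 3.82 ± 0.87, adjusted p = 0.00974). The days did not overlap, and the call held whichever library was left out. Hoxa11 had no count in E9.5 HE and 255 counts in E8.5 HE, as 4.15, 4.03, 0.0475 and 1.88 CPM, at least 58.4-fold lower (adjusted p = 0.0126). The reads shared with Hoxa11os apply here too, and the call was lost without E9.5 HE replicate 1 or 3 (adjusted p = 0.0621 and 0.0656). Fitted to the HE of these days alone, neither passed (adjusted p of 0.0681 for Hoxa4 and 0.0509 for Hoxa11). Hoxb5 had 19.4, 25.1 and 26.1 CPM in E9.5 HE and 68.4, 73.9, 35.6 and 38.3 CPM in E8.5 HE, all lower at E9.5 and just short of the threshold (log2 -1.20 ± 0.37, adjusted p = 0.0513). Without E8.5 HE replicate 3, 4 members were called, and the share of all genes called in that fit is not given here. Markers of other cells differed between the days too. Of 12 mesenchyme genes, 12 with counts at E9.5 and 11 at E8.5, 2 were called higher, and the sums were 309 to 465 CPM in E9.5 HE and 37.8 to 82.8 CPM in E8.5 HE, with Dcn at 0 at E8.5. The 12 neural genes, 6 with counts on each day, summed to 76.9 to 149 CPM in E9.5 HE and 26.1 to 63.5 CPM in E8.5 HE, with Sox1, Sox3, Tubb3 and Foxd3 at 0 on both. Their part in the Hox differences was not tested.

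Between E9.5 and E10.5 HE, Hoxa10 was the 1 called member of 34, higher at E10.5, where 3.64% of all genes were called and 1.49% were higher. Counted in either direction, the share of members called was not above that of genes at large. Hoxa10 had 35.5, 28.01 and 27.8 CPM in E10.5 HE and 7.89, 10.1 and 2.63 CPM in E9.5 HE, well apart (log2 2.15 ± 0.54, adjusted p = 0.0236). The call was lost without any 1 of the libraries except E9.5 HE replicate 2 (adjusted p of 0.0517 to 0.146). Hoxa9 had 40.7, 50.9 and 32.3 CPM in E10.5 HE and 23.1, 19.6 and 15.4 CPM in E9.5 HE, all higher at E10.5 without a call (log2 1.09 ± 0.44, adjusted p = 0.183), and in a fit to the HE of these days alone it passed (adjusted p = 0.0343).

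Between the early blood cells of the 2 later days, pre-HSC I and pro-HSC/HPC, edgeR called 0 of 34 members, where 0.23% of all genes were higher, 1.22% lower and 1.45% called in all. Before adjustment 9 had a p under 0.05, all lower in pre-HSC I, and DESeq2 called 1, Hoxd9. Libraries of pre-HSC I lay entirely above for 6 members and below for 11, against 8.59% and 9.88% of all genes. Hoxd9 had 0, 0 and 0.0422 CPM in pre-HSC I and 0.150, 1.46 and 1.45 CPM in pro-HSC/HPC, all lower in pre-HSC I, at 1 count against 78 (64.8-fold, 95% counting interval 11.3 to 2593, edgeR adjusted p = 0.115). Hoxb5 had 9.24, 6.62 and 8.36 CPM in pre-HSC I and 12.9, 14.1 and 28.7 CPM in pro-HSC/HPC, without overlap (adjusted p = 0.146). Hoxa9 had 66.1, 60.8 and 63.6 CPM in pre-HSC I and 45.9, 41.1 and 47.2 CPM in pro-HSC/HPC, all higher in pre-HSC I without a call. Erythroid markers, 7 of 8 with counts in each and Hba-a1 at 0, summed to 16.4 to 1404 CPM in pre-HSC I and 11.8 to 12122 CPM in pro-HSC/HPC, and their part was not tested.

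Partners and regulators of the Hox genes were counted from lists of known genes. Among 9 Hox cofactor genes of the TALE class, 3 were higher in E8.5 HE than in E8.5 EC, where 5.08% of all genes were, with a median log2 difference of 1.56 over the 9 against 0 over all genes. Meis1, a partner of Hoxa9, averaged 88.5 ± 13.5 CPM in E8.5 HE and 26.7 ± 3.22 in E8.5 EC (log2 1.73 ± 0.24, adjusted p = 2.71e-05). Meis2, its paralog, was higher too (log2 3.20 ± 0.61, adjusted p = 0.00137). Meis1 was also higher in HE than in EC at E10.5 (log2 1.56 ± 0.25, adjusted p = 0.000301), and it was higher in pro-HSC/HPC than in E9.5 HE (log2 1.33 ± 0.24, adjusted p = 0.00396). Meis1 averaged 224 ± 35.3 CPM in pre-HSC II and 194 ± 5.95 in pre-HSC I, without a call, while Meis2 was lower in pre-HSC II (log2 -2.23 ± 0.60, adjusted p = 0.0268).

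Of 16 tested retinoic acid genes, 3 were higher and 0 lower in E8.5 HE than in E8.5 EC, where 5.08% and 1.73% of all genes were, with a median log2 difference of 0.70. Cyp26b1, which breaks down retinoic acid, was at 19.7 ± 10.7 CPM in HE, against 0.118 ± 0.171 CPM in EC (log2 7.63 ± 0.71, adjusted p = 9.92e-08). Rarb, a retinoic acid receptor and target, was at 15.2 ± 5.49 CPM in HE, against 0.707 ± 0.772 CPM in EC (log2 4.36 ± 0.82, adjusted p = 0.0011), and Dhrs3, which reduces retinal, was the third (log2 1.92 ± 0.32, adjusted p = 0.000295). In pre-HSC II 3 of 16 were lower than in pre-HSC I and 0 higher, where 4.28% and 0.138% of all genes were, with a median of -2.04. They were Cyp26b1 (log2 -2.65 ± 0.48, adjusted p = 0.000575), Cyp26a1, another retinoic acid hydroxylase (log2 -5.29 ± 1.01, adjusted p = 0.000915), and the receptor Rara (log2 -3.06 ± 0.60, adjusted p = 0.00141). Aldh1a1, Aldh1a2, Crabp1, Crabp2 and Stra6 had no count in pre-HSC II, and the median of -2.04 was taken without setting low counts at a bound. In E9.5 EC 3 of the 16 were higher and 3 lower than in E8.5 EC, where 10.1% and 9.56% of all genes were.

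Genes of the complexes that keep Hox clusters active or silent were also counted. Of 17 Polycomb genes 0 were called in either direction between E8.5 HE and EC and between pre-HSC II and pre-HSC I, with medians of -0.13 and -0.35. With the replicate block within the day 1 was lower in E8.5 HE, where 6.9% of all genes were: Eed, a core subunit of PRC2 (log2 -0.75, adjusted p = 0.00545). In E9.5 EC 2 were higher and 2 lower than in E8.5 EC, a share near the 19.7% of all genes called there. Of 15 Trithorax and MLL genes, 3 were higher in pre-HSC I than in E10.5 HE, where 3.08% of all genes were: Wdr5 (log2 0.97 ± 0.26, adjusted p = 0.0202), Dpy30 (log2 0.76 ± 0.22, adjusted p = 0.0302) and Psip1 (log2 0.93 ± 0.27, adjusted p = 0.0389). Mllt3, a fusion partner of MLL that supports stem cells, was higher in E10.5 HE than in E10.5 EC, at 102 ± 30.2 and 16.3 ± 2.88 CPM (log2 2.64 ± 0.60, adjusted p = 0.0107). The 3 Cdx genes together reached at most 0.230 CPM in a library of E8.5 HE and 4.95 CPM in one of E8.5 EC, at most 1.56 CPM in one of any other population, and were at 0 in at least 1 library of each population. Only 1 of them was tested, without a call in any comparison.

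Mira, a noncoding RNA gene that lies between Hoxa6 and Hoxa7 (chr6:52164490-52165287, mm9) and shares no exon base with either in the table, had 2.38 to 3.96 CPM in E8.5 HE and 10.6 to 20.5 CPM in E8.5 EC. The groups did not overlap (log2 -2.12 ± 0.34, adjusted p = 0.000226), beside the -2.30 of Hoxa7. Between HE and EC of E10.5 Mira was not called (log2 -0.31 ± 0.36, adjusted p = 0.776). The gap was thus smaller than at E8.5, and HE minus EC rose by 1.81 ± 0.50 on the log2 scale (adjusted p = 0.0429), beside 2.32 for Hoxa9. Hoxa11os averaged 6.90 ± 5.43 CPM in E8.5 HE and 32.05 ± 12.5 in E8.5 EC and was not called (log2 -2.21 ± 1.24, adjusted p = 0.306).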

How the data were processed

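Each library has 1 column in the authors' table of counts, whole numbers of reads per gene that were neither normalized nor filtered, beside gene coordinates and lengths, in the layout of featureCounts per the file headers. The submitters' processing notes name TopHat, SAMtools, Subread, featureCounts 1.6.2 and the build mm9. Neither the strand setting nor the handling of multi-mapping reads is given in the sources used here, nor is the annotation, so overlapping or near-identical genes may share reads. Per the labels' protocols, polyadenylated RNA of 100 cells was amplified (SMARTer Ultra Low Input), and no molecular identifiers are named.

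Genes kept by filterByExpr (minimum count 10) were fitted with edgeR 4.0.16 in R 4.3.3 (TMM scaling, quasi-likelihood model, 1 coefficient per population, all 28 libraries). The procedure was also run on simulated data, where changes were set only in genes averaging at least 10 CPM. Recovery of changes at lower levels was thus not covered. P-values were adjusted by Benjamini-Hochberg over all 15238 genes. CPM use the TMM-scaled sizes. Counts of 0 were bounded by 3 counts over the group, and 95% intervals of ratios cover counting error only. Alternatives were DESeq2 1.42.0, its size factors in edgeR, no filter, a fit to the populations compared, a replicate block and leaving out each library. Deviations of same-numbered libraries from their group means correlated over 0.1 in all 3 pairs at E8.5 (r 0.174 to 0.215) and all 9 at E9.5 (0.105 to 0.352), so the numbers were taken to pair libraries there, from the data and not from the labels. At E10.5 13 of 18 did (0.0273 to 0.406), 2 of 3 for each pair of populations compared, and between days 13 of 78. A block within the day was therefore added after seeing the data.

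The members, gene lists and alternatives were chosen with earlier results of these data known. Named were members called within a day, or between days in HE or EC, a panel of 6 (Hoxa5, Hoxa7, Hoxa9, Hoxa10, Hoxb4, Hoxb5) and the highest member of each cluster. Up to 4 called genes of each regulator list and comparison were also eligible. Members under the threshold that are named beside these (Hoxc4, Hoxa6, Hoxd10, Hoxa11 at E9.5, Hoxa3 and Hoxd9 in blood) were chosen after their values were seen. Some called genes that this rule covers are not reported here. Promoters came from RefSeq (GRCm38.p6), which held 22 of the 39 members.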

Additional observations from a re-analysis of the deposited data

Results flagged for a closer look

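Within the 4 libraries of E8.5 HE, the highest value of Hoxa6 stood far from the others: replicate 2 had 0.0768 CPM and the other three had 0. For Hoxa13 in the same population, replicate 3 had 0.0475 CPM and the other three had 0. Both are single reads or a pair of reads, under the floor of 3 counts. Among 42 values tested this way 2 were set apart. Where the other libraries are all at 0, any nonzero count is set apart, so the chance rate of about 1 in 20 does not apply to these 2.

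The difference between HE and EC in Hoxa9 was itself different between E10.5 and E8.5, by 2.32 on the log2 scale in the edgeR interaction contrast (adjusted p = 0.0299). It was lower in HE than in EC in all libraries at E8.5, and the libraries overlapped at E10.5.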

How the results depend on the processing

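With DESeq2's size factors in edgeR all 22 called member results kept their direction and call, as they did without the filter on low counts and in DESeq2, and no setting reversed one. The number of Hox genes called at E8.5 in HE against EC was 5, but 0 in the fit to those populations alone and 8 in DESeq2. At E9.5 (HE against EC) it was 0, but 1 without the filter, 1 in the fit to those populations and 1 in DESeq2. At E10.5 it was 0, but 1 without the filter and 1 in DESeq2. For pro-HSC/HPC against HE it was 0, but 2 in the fit to those populations and 1 in DESeq2. For pre-HSC I against HE it was 3, and 5 in DESeq2. For pre-HSC II set against pre-HSC I it was 5, but 1 in the fit to those populations and 8 in DESeq2. For EC, E9.5 against E8.5, it was 5, and 8 in DESeq2. For HE it was 2 at E9.5 against E8.5, but 0 in the fit to those populations and 4 in DESeq2, and 1 at E10.5 against E9.5, but 2 in the fit to those populations. For pre-HSC I against pro-HSC/HPC it was 0, and 1 in DESeq2. For the HE-EC difference at E10.5 against E8.5 it was 1, but 2 without the filter, 2 with the replicate block over all days, 0 in the fit to those populations and 2 in DESeq2. The cause of these shifts was not tested.

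Leaving out 1 library at a time gave 3 to 6 calls for E8.5 HE against EC, 0 to 1 for E10.5 HE against EC, 0 to 3 for pre-HSC I against HE, 3 to 6 for pre-HSC II set against pre-HSC I, 3 to 6 for EC at E9.5 against E8.5, 1 to 4 for HE at E9.5 against E8.5, 0 to 1 for HE at E10.5 against E9.5, 0 to 1 for the HE-EC difference at E9.5 against E8.5 and 0 to 3 at E10.5 against E8.5. Calls over all genes in these runs are not given here. Of the 22 called member results 10 kept their call in every such run, and none changed sign. In the fits to the populations compared 7 kept their call, 12 did not and 3 gave no value.

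Of 296 recomputed cluster and paralog sums, 2 moved by more than the spread between libraries: Hoxa in pre-HSC I was 48.7 CPM per kb with DESeq2's size factors against 47.9, and paralogs 9 to 13 in pro-HSC/HPC 21.9 against 22.2.

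With the replicate number as a block over all days, Hoxb7 in pre-HSC II (log2 -1.76, adjusted p = 0.0512) missed the threshold. A block of the replicate number within the day was added after seeing the data, for comparisons within a day. Of 14 called member results it left 13 with their call, and Hoxb7 in pre-HSC II (adjusted p = 0.076) missed it. At E10.5, where the numbers were not taken as pairs, it called 2 members in HE against EC, Hoxb3 (log2 1.43, adjusted p = 0.0364) and Hoxd10 (log2 -5.78, adjusted p = 0.0191), 4 in pre-HSC I against HE and 5 in pre-HSC II set against pre-HSC I. It gave 1 for the HE-EC difference at E9.5 against E8.5, 1 for pro-HSC/HPC against HE, and 2 for the HE-EC difference at E10.5 against E8.5, Hoxa9 (log2 2.49, adjusted p = 0.000311) and Hoxa10 (log2 3.31, adjusted p = 0.00753). Over all genes it called 2193 at E8.5, 168 at E9.5 and 1316 at E10.5 in HE against EC, 218 for pro-HSC/HPC and 2327 for pre-HSC I (each against HE), and 298, 917 and 31 for the HE-EC differences.

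Over all genes, calls at E8.5 numbered 1038, but 191 in the fit to those populations and 1698 in DESeq2. At E9.5 (HE against EC) they numbered 46, but 100 without the filter, 140 in the fit to those populations and 169 in DESeq2. For pro-HSC/HPC against HE they numbered 100, but 155, 201 and 218 in the same order. For HE, E9.5 against E8.5, they numbered 997, but 469 in the fit to those populations and 1735 in DESeq2, and for E10.5 against E9.5 555, but 950 and 1055. DESeq2 called 945 at E10.5 against 530, 1587 in pre-HSC I against 1049, 418 in EC at E10.5 against 116, and 490 between pre-HSC I and pro-HSC/HPC against 221. For the HE-EC difference, calls at E9.5 against E8.5 numbered 129, but 75 in the fit to those populations and 293 in DESeq2, at E10.5 against E8.5 455, but 238 and 794, and at E10.5 against E9.5 2, but 10 without the filter, 0 with the block over all days and 40 in DESeq2.

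Groups of 3 or 4 libraries limit the precision, and a difference that was not called is not shown to be absent. Amplified reads are not independent molecules, so floors and intervals cover counting error only.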
